A study of Mus musculus with 36 samples.

Results

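Atria of mice given an MBNL1 vector were compared with atria of mice in which the CUG repeat RNA had been switched off, to ask which transcripts MBNL1 left short of the level reached by repeat removal. The comparison rests on 6 of the 36 libraries of the series, 3 from the MBNL1 cohort and 3 from the on/off dox cohort, taken by their labels. All animals were 21-week-old CUG960 mice with the genotype TREDT960I (Hom)/ MHCrtTA (Hem). In this model the TRE-driven TREDT960I transgene carries an interrupted CTG repeat in the human DMPK gene, and rtTA made from the α-myosin heavy chain promoter turns it on in cardiomyocytes while doxycycline (dox) is in the chow. Mice of both cohorts had dox from postnatal day 1. The MBNL1 mice then stayed on dox and received AAV9-3XFLAG-MBNL1, a tagged human MBNL1 under the human TNNT2 promoter, by tail vein at 9 weeks. The on/off dox mice received no vector, lost dox at 9 weeks and spent the remaining 12 weeks on normal chow. Repeat RNA, dox in the chow and the vector itself therefore all differ between the 2 cohorts and cannot be told apart. The on dox cohort (repeats on throughout, no vector) and the no dox cohort (repeats never induced), 3 atrial libraries each, served as references. Neither shares a library with the 2 cohorts compared, although both enter the same statistical fit. The counts are of mouse genes, with no separate count of the transgene or the vector.

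MBNL proteins are RNA-binding regulators of splicing, localization and stability that rise in activity as the heart matures. In myotonic dystrophy type 1, RNA with expanded CUG repeats folds into hairpins that bind and sequester MBNL proteins in nuclear foci, and transcripts that need MBNL return to fetal forms. Added MBNL may make up for some of the sequestered protein, and how much MBNL activity the vector restored was not tested here. Withdrawal of the repeat RNA also removes whatever else that RNA does. Atrial muscle conducts through connexin 40 and connexin 43 gap junctions and makes natriuretic peptides, so conduction genes and atrial identity genes were among those listed.

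The 6 libraries held between 55032000 and 85395800 expected counts and 22553 to 23719 genes above 0. Levels below are CPM, counts scaled to the size of each library after TMM normalisation, given in the order of replicates 1, 2 and 3, and differences are log2 fold changes with their standard errors (SE, n = 3 per cohort) from edgeR's quasi-likelihood fit. Calls required a p below 0.05 after Benjamini-Hochberg adjustment over all tested genes together with a change of 1.5-fold or more. In both cohorts replicate 3 came from a second library set, inferred here from the library names. It showed the Xist and Ddx3y levels of a female, while replicates 1 and 2 did not. Atrial myocyte markers summed to 60034 to 64667 TPM, a level per transcript length, in MBNL1 and to 69485 to 75418 in on/off dox, and the lung markers to at most 0.5. Nppa, the atrial natriuretic peptide gene, read 10882, 12744 and 10889 CPM against 13814, 15598 and 15025, a difference of -0.36 that was not called (adjusted p = 0.191). Traces of ventricle varied, with Myl2, the ventricular regulatory light chain, at 129, 66.5 and 11.9 CPM in MBNL1 and at 88.7, 24.7 and 53.0 in on/off dox. The 7 ventricular myocyte markers, Pln among them, summed to 2194 to 2476 CPM in MBNL1 and 2838 to 3042 in on/off dox, without overlap. Of the 7, 3 lay below and 4 above on/off dox, the median was 0.32 and 1 was called, lower in MBNL1. In bulk tissue, fewer cells of a type and less RNA per cell cannot be told apart.

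Mouse Mbnl1 read 215, 217 and 214 CPM in MBNL1 and 181, 183 and 171 in on/off dox. The cohorts did not overlap, and the difference of 0.27 ± 0.07 (adjusted p = 0.0269) stayed under the 1.5-fold limit. How many reads of the human vector aligned to the mouse gene was not tested. Mbnl2, its paralog, differed by 0.13 ± 0.08 (adjusted p = 0.393), and Mbnl3 was below 0.3 CPM in all 6 libraries. Dmpk, whose human counterpart carries the repeat, read 617, 605 and 544 CPM in MBNL1 and 529.7, 553 and 485 in on/off dox, a difference of 0.17 ± 0.07 that was not called (adjusted p = 0.171). Reads of the human DMPK transgene, on in MBNL1 and off in on/off dox, may be part of these Dmpk levels, and their share was not tested.

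Between MBNL1 and on/off dox, 354 of 18408 tested genes (1.92%) were called, 184 higher (1%) and 170 lower (0.924%) in MBNL1. Among called genes without overlap, with established names and at 1 CPM or more, the 12 largest falls included Gja5 (connexin 40), Lad1, Clcn1 and Coq8a, and the 12 largest rises Vxn, Rimkla, Cited1 and Vdr. In 350 of the 354 the libraries of the cohorts did not overlap, which 27.5% of all tested genes also showed. The 4 that overlapped were Cd52, Cnksr1, Fgf16 and Gm43216, named here after their values were seen. Of the called genes 73 have predicted names and are only counted, 62 averaged under 1 CPM and 18 averaged at least 100 CPM.

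The on dox and no dox libraries are in neither cohort compared, although they enter the same fit. With only the 6 libraries compared, 315 genes were called, 276 of them among the 354. The references showed on which side of withdrawal the 354 genes lay. No dox against on dox called 1311 genes (7.12%), 664 higher (3.61%) and 647 lower (3.51%) without repeats. Of the 354 genes, 245 (69.2%) were called there too, and in all 245 the MBNL1 level was displaced from on/off dox toward on dox. These divide into 114 genes lower in MBNL1 that were higher without repeats, and 131 genes higher in MBNL1 that were lower without repeats. Genes displaced the other way numbered 0. Without the fold limit, edgeR gave an adjusted p below 0.05 at 1441 genes and an unadjusted p below 0.05 at 3954. The 245 make up 18.7% of the 1311 repeat-responsive genes. Against the same on dox libraries, on/off dox called 986 genes (5.36%) and MBNL1 43 (0.234%), and these 2 comparisons share those libraries with each other. The 43 became 106 with DESeq2 and 21 to 40 with 1 library left out.

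**Figure D1:**
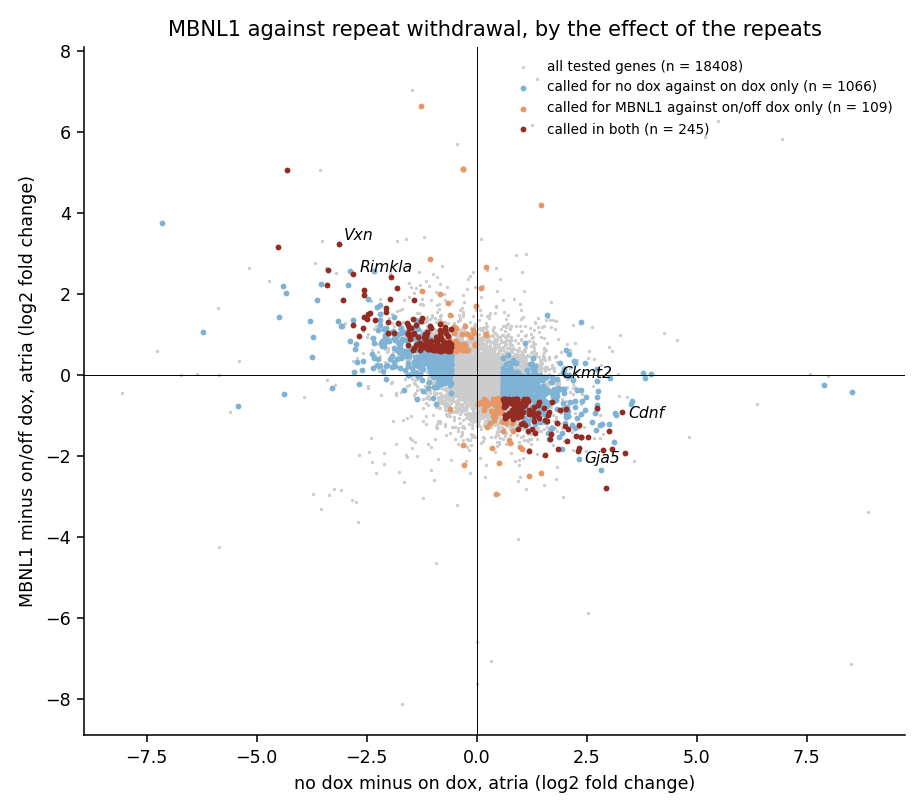
Each point is one of 18408 genes tested in atria, with the log2 fold change of no dox minus on dox on the horizontal axis and of MBNL1 minus on/off dox on the vertical axis, and colours mark the calls. The 245 genes called in both lie in the upper left and lower right of the plot.

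Most repeat-responsive genes were not called, and over all of them, called genes included, the differences leaned the same way. Over the 664 genes higher without repeats the median of MBNL1 minus on/off dox was -0.41 (quartiles -0.68 and -0.23), and 619 of them lay below on/off dox. Over the 647 genes lower without repeats it was 0.47 (quartiles 0.27 and 0.75), with 606 above. The median over all tested genes was -0.01. Taken as one set, 93.4% of the 1311 lay on the on dox side of on/off dox by sign, against 73.9% of all tested genes. For 239 of the 1311 the 95% interval of the difference fell wholly within 1.5-fold of on/off dox, and 827 were neither called nor bounded in this way.

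Gja5 codes for connexin 40, the gap junction channel of atrial muscle and the fast conduction system (ENSMUSG00000057123, chromosome 3, 96904693 to 97077416, GRCm38/mm10). It read 16.4, 14.1 and 16.6 CPM in MBNL1 and 39.0, 61.5 and 72.3 in on/off dox. The no dox libraries held 93.7, 82.1 and 85.3 and the on dox libraries 16.8, 16.0 and 20.4. MBNL1 atria overlapped on dox and lay below every on/off dox library, and on/off dox atria lay between the references with a wide spread. MBNL1 was lower than on/off dox by a log2 fold change of -1.88 ± 0.21 (adjusted p = 0.000179), and its difference from on dox was -0.17 (adjusted p = 0.831). The gene model overlaps others, Gpr89 among them, on the opposite strand.

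Of 23 tested genes for conduction and pacemaking, Gja5 was the 1 lower in MBNL1 and 3 were higher, with a list median of 0.04. Counts for this and the lists that follow stand beside 1% higher and 0.924% lower over all tested genes, and with so few calls a list they are descriptions. Cacna1d, the L-type calcium channel Cav1.3 of pacemaking and atrial cells, read 46.3, 47.9 and 40.9 CPM in MBNL1 and 27.2, 29.9 and 25.5 in on/off dox, without overlap. The difference was 0.71 ± 0.10 (adjusted p = 0.000321), and without repeats the gene was lower by -1.26. Popdc3, a Popeye domain protein that binds cyclic AMP in muscle, rose by 0.78 ± 0.12 (adjusted p = 0.000852), from 10.1 to 14.7 CPM in on/off dox to 19.0 to 23.3 in MBNL1. Gjd3, a minor conduction connexin, was below 1 CPM throughout and lost its call of 1.85 without MBNL1 replicate 1 (adjusted p = 0.0829), on/off dox replicate 1 (0.0505) or on/off dox replicate 2 (0.0908). Hcn4, the pacemaker channel, read 21.3, 16.3 and 12.3 CPM in MBNL1 and 3.27, 7.66 and 8.57 in on/off dox. No library overlapped, and the difference of 1.35 ± 0.50 was not called by edgeR (adjusted p = 0.133), while limma on log2(TPM + 1) called it at 1.03 (adjusted p = 0.0414). Of 9 sinoatrial node markers, Hcn4 among them, 5 lay below and 4 above on/off dox, with a median of -0.02 and no call. They summed to 164 to 184 CPM in MBNL1 and 146 to 189 in on/off dox. The part of nodal tissue in the Hcn4 level was not tested.

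Among 43 tested ion channels of the action potential, 2 were higher and 3 lower in MBNL1 (all tested genes, 1% and 0.924%), and the list median was -0.10. Clcn1, the muscle chloride channel whose loss causes myotonia, read 4.87, 4.59 and 6.86 CPM in MBNL1 and 14.99, 15.5 and 17.0 in on/off dox. On dox atria held 2.64 to 3.39 and no dox atria 16.5 to 17.5, so MBNL1 lay near the bottom of that range. The fall was -1.54 ± 0.19 (adjusted p = 0.000164), while MBNL1 stood 0.89 above on dox (adjusted p = 0.0444). Scn10a, the sodium channel Nav1.8, fell by -1.04 ± 0.20 (adjusted p = 0.00382) with 5.62 to 6.46 CPM against 10.9 to 15.1. Kcnn1, a calcium-activated potassium channel, rose by 0.64 ± 0.08 (adjusted p = 9.34e-05), although without MBNL1 replicate 2 the change was 0.56 and under the fold limit. Scn4b, a sodium channel beta subunit, read 0.89 higher (adjusted p = 0.0206) and Kcnv2, a silent potassium channel subunit, 0.95 lower on the log2 scale (-0.95, adjusted p = 0.0168). Leaving out single libraries ended both calls. For Scn4b these were MBNL1 replicate 1 (adjusted p = 0.0587), MBNL1 replicate 2 (0.0905), on/off dox replicate 1 (0.0592) and on/off dox replicate 3 (0.0845), and for Kcnv2 MBNL1 replicate 1 (0.0734), on/off dox replicate 1 (0.083) and on/off dox replicate 2 (0.0585). Kcna4, a transient outward potassium channel, differed by 0.29 with a 95% interval of 0.05 to 0.52 (adjusted p = 0.143).

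Of 34 genes for calcium release and reuptake, 2 were lower in MBNL1 (all tested genes, 0.924%) and none was higher, beside a list median of -0.05. Ryr2, the calcium release channel of the sarcoplasmic reticulum, read 1330.3, 1423 and 1322 CPM in MBNL1 and 2109, 2362 and 2141 in on/off dox. The on dox libraries, at 1356, 1432 and 1274, covered the same range as MBNL1. Ryr2 fell by -0.70 ± 0.07 (adjusted p = 9.45e-06), and MBNL1 minus on dox was 0.00 (adjusted p = 0.989). Pln, phospholamban, the brake on the calcium pump, read 1094, 1081 and 883 CPM against 1607, 1635 and 1375, a change of -0.59 ± 0.12 (adjusted p = 0.0052). Its change dropped to -0.51, -0.56 and -0.55, under the fold limit, without MBNL1 replicate 3, on/off dox replicate 1 and on/off dox replicate 2. Pln is also more abundant in ventricle, and the part of the ventricular traces given above in its change was not tested. Asph, which codes for aspartate beta-hydroxylase and junctin, rose from 306 to 335 CPM to 368 to 445, by 0.34 ± 0.09 (adjusted p = 0.0213), short of the fold limit.

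**Figure D2:**
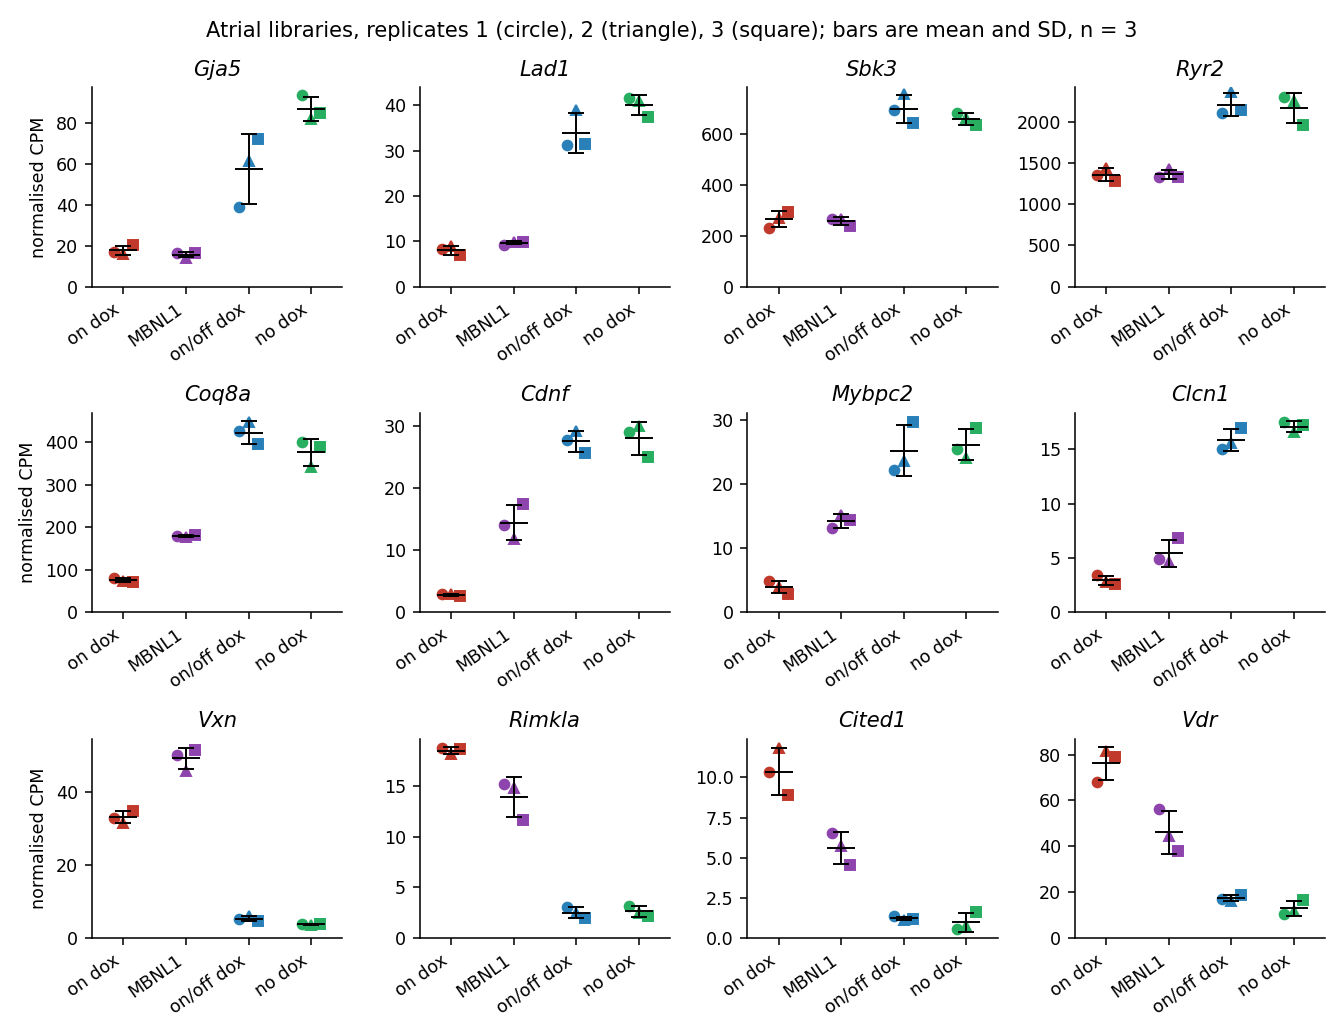
Normalised CPM of 12 genes in the on dox, MBNL1, on/off dox and no dox atria, with one point per library and bars for mean and SD (n = 3). For Gja5, Sbk3 and Ryr2 the MBNL1 points overlap on dox, and for Coq8a, Cdnf and Mybpc2 they sit between on dox and on/off dox.

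Of 63 tested sarcomere genes 4 were called lower in MBNL1 (all tested genes, 0.924%) and none higher, with a list median of -0.05, and each of the 4 calls was lost when some single library was left out. Mybpc2, the fast skeletal isoform of myosin-binding protein C, read 13.1, 15.2 and 14.3 CPM in MBNL1 and 22.1, 23.6 and 29.7 in on/off dox. With 2.91 to 4.80 CPM in on dox, MBNL1 had moved off the on dox level by 1.86 (adjusted p = 0.000228) and was short of on/off dox by -0.82 ± 0.19 (adjusted p = 0.0126). The shortfall was no longer called without MBNL1 replicate 1 (adjusted p = 0.0614) or on/off dox replicate 3 (0.059), or with all 36 libraries in the fit (0.215). Tnnt3 and Tnni2, fast skeletal troponins, were under 2 CPM in every library and fell by -1.95 and -1.27, and Neb, nebulin, by -0.84 from 7.67 to 11.2 CPM to 5.39 to 5.93. The Tnnt3 call was lost without MBNL1 replicates 1 or 3 or on/off dox replicates 2 or 3 (adjusted p of 0.0894, 0.0832, 0.0658 and 0.081). The Tnni2 and Neb calls were lost without any library of the comparison except on/off dox replicate 1, with adjusted p up to 0.144 and 0.116. Of 20 fast skeletal muscle genes, Mybpc2, Tnnt3 and Tnni2 were the 3 called.

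Coq8a, an atypical kinase needed for coenzyme Q synthesis (chromosome 1, 180165238 to 180199602, GRCm38/mm10), read 179.7, 178 and 182 CPM in MBNL1 and 426, 449 and 395 in on/off dox. On dox libraries held 80.1, 73.3 and 71.1, so that MBNL1 was above on dox by 1.27 (adjusted p = 1.13e-06) and below on/off dox by -1.23 ± 0.10 (adjusted p = 3.84e-07). Ckmt2, the mitochondrial creatine kinase, read 448, 533 and 551 CPM against 679.6, 745 and 641, without overlap, and its -0.43 ± 0.14 was not called (adjusted p = 0.0621, 95% interval -0.72 to -0.15). It had risen over on dox by 1.20 (adjusted p = 0.000284). The mitochondrial 16S ribosomal RNA mt-Rnr2 fell by -0.64 ± 0.13 (adjusted p = 0.00603), or by -0.56 and under the fold limit without on/off dox replicate 2. Poly(A)-selected libraries may not measure the level of a ribosomal RNA. It was the 1 call among 15 tested mitochondrial DNA genes (all tested genes, 0.924% lower), whose list median was -0.12. Nmrk2, an enzyme of NAD synthesis in muscle, fell by -1.15 ± 0.24 (adjusted p = 0.00795), from 5.58 to 8.39 CPM to 2.64 to 4.11. None of 48 tested fatty acid genes, 38 glucose genes, 100 nuclear respiratory chain genes, 80 mitochondrial ribosomal proteins or 20 creatine and pyruvate dehydrogenase genes was called, with list medians between -0.11 and 0.04, beside 1.92% called over all tested genes. Of these lists the fatty acid genes had 6 members called higher without repeats (all tested genes, 3.61%). None of the 6 was called between MBNL1 and on/off dox.

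Cdnf, an ER-resident neurotrophic factor, read 14.1, 11.8 and 17.4 CPM in MBNL1 and 27.8, 29.2 and 25.7 in on/off dox. It was near 3 CPM in on dox and at 24.98 to 30.0 in no dox. MBNL1 had raised it by 2.35 over on dox (adjusted p = 4.54e-07) and left it -0.93 ± 0.14 from on/off dox (adjusted p = 0.000754). It was the one called member of 30 tested ER chaperones and neurotrophic factors.

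The remaining named falls came from several families. Lad1, the anchoring filament protein ladinin, read 9.27, 9.88 and 9.85 CPM against 31.2, 39.0 and 31.5, a change of -1.81 ± 0.17 (adjusted p = 1.86e-05). Sbk3, a muscle-enriched kinase, read 267, 267 and 239 against 692, 756 and 643 and fell by -1.44 ± 0.19 (adjusted p = 0.000543), a call that a fit of all 36 libraries did not make (0.101). For Sbk3, MBNL1 overlapped the on dox libraries at 231, 269 and 293 CPM (difference -0.04, adjusted p = 0.972). For Lad1 every MBNL1 library lay above the on dox libraries at 8.22, 8.89 and 6.96, by 0.27, which was not called (adjusted p = 0.619). Pnmt, which makes adrenaline from noradrenaline, fell by -1.88 ± 0.23 (adjusted p = 6.59e-05) with 0.672 to 1.08 CPM against 2.56 to 3.97, and Dbh, which makes noradrenaline, by -1.11 ± 0.26 (adjusted p = 0.0118), or by -0.91 without MBNL1 replicate 3 (adjusted p = 0.0516). The Schwann cell and neuron markers, a list that holds Dbh, summed to 13.8, 13.96 and 14.8 CPM in MBNL1 and 18.4, 17.2 and 18.3 in on/off dox, without overlap. Dbh was the one call of its 7 tested members, the list median was -0.20, and the part of these cells in the Pnmt and Dbh levels was not tested. Aldh3b3, an aldehyde dehydrogenase, Car2, carbonic anhydrase 2, and Zfand4, a zinc finger gene, fell by -1.24, -1.22 and -1.38. With limma on log2(TPM + 1) Zfand4 was at -0.46, under the fold limit, and lost its call. Dpysl5 (a neuronal growth cone protein, -1.33), Lypd1 (a GPI-anchored receptor modulator, -1.20) and Hsf2bp (a meiotic recombination factor, -1.20) completed the 12. Single libraries ended these last calls, at an adjusted p of 0.0553 and 0.0578 for Dpysl5 without MBNL1 replicates 1 and 2, 0.0579 for Lypd1 without MBNL1 replicate 2 and 0.0505 for Hsf2bp without on/off dox replicate 2. Of the 12 falls 10 were called higher in no dox than in on dox, and Lypd1 and Hsf2bp were not.

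The largest rise by the naming rule was Vxn, vexin, a regulator of neuronal differentiation (ENSMUSG00000067879, chromosome 1, 9601199 to 9627143, GRCm38/mm10). It read 50.2, 46.0 and 51.7 CPM in MBNL1 and 5.28, 6.07 and 4.54 in on/off dox, a difference of 3.22 ± 0.11 (adjusted p = 6.8e-13). On dox atria held 33.0, 31.7 and 34.9, below every MBNL1 library, and no dox atria 3.62 to 3.88. MBNL1 exceeded on dox by 0.57 (adjusted p = 0.00579), just under the 1.5-fold limit.

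Rimkla, which joins N-acetylaspartate to glutamate, read 15.3, 14.9 and 11.7 CPM against 3.04, 2.49 and 1.99, a rise of 2.48 ± 0.15 (adjusted p = 9.62e-09), and its on dox level of 18.2 to 18.8 was not distinguished from MBNL1 by the test (-0.41, adjusted p = 0.2). Cited1, a transcriptional coregulator, read 6.54, 5.76 and 4.54 against 1.34, 1.14 and 1.17, a rise of 2.21 ± 0.28 (adjusted p = 0.000186), and was the one call among 25 chamber identity regulators. Vdr, the vitamin D receptor, read 56.2, 44.3 and 37.8 against 17.2, 16.1 and 18.8 and rose by 1.41 ± 0.17 (adjusted p = 0.00018). The other 8 of the 12 largest rises lay between 1.31 and 1.88. They were Kcnj14 (an inward rectifier potassium channel), Necap2 (an endocytic adaptor), Ccne1 (cyclin E1), Shank2 and Rims4 (synaptic scaffolds), Rgs16 (an inhibitor of G protein signalling), Rab11fip4 (a Rab11 effector) and Sp3os (a transcript opposite Sp3). Of these only Kcnj14 lost its call when single libraries were left out, without either MBNL1 replicate 1 or 2 or any on/off dox replicate (adjusted p of 0.104 to 0.172). With limma on log2(TPM + 1) the calls of Rims4 (0.55) and Rab11fip4 (0.28) were lost, under the fold limit. All 12 rises were called lower in no dox than in on dox.

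Read from the repeat side, the 8 genes with the largest rises in no dox over on dox included 6 that were lower in MBNL1 than in on/off dox, namely Cdnf, Rab3b, Zfand4, Mybpc2, Clcn1 and Coq8a. Rab3b, a secretory vesicle GTPase, read 0.343, 0.31 and 0.385 CPM against 1.01, 1.25 and 1.46 (-1.84 ± 0.27, adjusted p = 0.000398). The 2 not called were Stmnd1 (stathmin domain, -0.55, adjusted p = 0.399) and Mfsd4b1 (a transporter, -0.65, adjusted p = 0.0508), the latter called in 6 of 16 alternatives, DESeq2 (adjusted p = 0.0149) and the replicate block (0.0275) among them. Of the 8 largest falls, 5 were higher in MBNL1, Cited1, Vxn, Rimkla and Sult4a1 among them. Sult4a1, a brain sulfotransferase, rose by 1.83 (adjusted p = 0.0157) and lost its call without MBNL1 replicate 2, on/off dox replicate 1 or on/off dox replicate 3 (adjusted p of 0.0839, 0.0803 and 0.0798). Serpina3f, Serpina3g (protease inhibitors) and Ptchd3 (a patched domain protein) read 2.19, 2.01 and 1.33 higher with SEs of 1.299, 1.29 and 0.74 and were not called. Single libraries decided these values: without MBNL1 replicate 3 Serpina3f was at -0.54 and Serpina3g at -0.71, and without MBNL1 replicate 2 Ptchd3 was at 0.03.

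Promoters are shown for the 3 named genes whose window, 250 bases before to 50 after the start, holds CTA, any 4 bases and TAG. With its 4 middle bases left free, this pattern is looser than the site of MEF2, the myocyte enhancer factors. The letters are their own reverse complement, and capitals mark the match. Clcn1 and Zfand4 were lower in MBNL1 and Cited1 was higher. RefSeq windows (GRCm38.p6) matched 47 of the 74 named genes.
Clcn1, chr6:42286435-42286734, plus strand: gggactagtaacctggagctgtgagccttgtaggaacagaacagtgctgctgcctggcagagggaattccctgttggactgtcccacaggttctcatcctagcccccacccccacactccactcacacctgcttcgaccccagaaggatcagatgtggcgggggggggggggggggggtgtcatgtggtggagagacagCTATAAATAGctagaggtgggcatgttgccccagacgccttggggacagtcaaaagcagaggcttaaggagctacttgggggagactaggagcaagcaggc
Zfand4, chr6:116266282-116266581, plus strand: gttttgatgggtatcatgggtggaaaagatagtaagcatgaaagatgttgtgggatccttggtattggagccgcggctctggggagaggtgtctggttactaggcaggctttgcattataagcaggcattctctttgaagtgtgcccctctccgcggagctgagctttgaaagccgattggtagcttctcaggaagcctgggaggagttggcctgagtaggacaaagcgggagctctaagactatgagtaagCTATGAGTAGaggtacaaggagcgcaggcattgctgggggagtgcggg
Cited1, chrX:102252132-102252431, minus strand: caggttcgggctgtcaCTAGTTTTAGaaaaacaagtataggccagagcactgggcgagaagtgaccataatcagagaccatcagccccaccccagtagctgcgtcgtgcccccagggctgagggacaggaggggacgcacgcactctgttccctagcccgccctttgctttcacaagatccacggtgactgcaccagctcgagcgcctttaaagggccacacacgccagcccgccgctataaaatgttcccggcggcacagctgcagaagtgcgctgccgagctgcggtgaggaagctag
Among genes left short, the letters stood in a window of 6 of 73 matched genes that were lower in MBNL1 (8.22%) and of 7 of 86 that were higher (8.14%), beside 3.85% of 12494 matched tested genes. A gene can have several windows. Counted per window, the letters stood in 5.83% of 103 and 6.03% of 116, beside 3.2% of 15917. A match is a description of the letters and not a site.

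No immune list gave a call, and their medians differed. The 51 tested interferon-induced genes had a median of 0.49, and 10 of them were called lower without repeats (all tested genes, 3.51%). The 15 antigen presentation genes, class II major histocompatibility genes among them, had a median of 0.70. Of these, 8 were called lower without repeats (all tested genes, 3.51%). Summed over the list, antigen presentation came to 1027, 709 and 2565 CPM in MBNL1 and 849, 671 and 1136 in on/off dox, so replicate 3 was highest in both cohorts and the ranges overlapped. The interferon list summed to 462, 446 and 1067 against 432, 369.5 and 596. The 9 tested T cell markers, with a median of 0.86 and no call, summed to 3.24, 2.41 and 8.74 CPM against 2.45, 2.11 and 3.48. The 15 macrophage markers and the 5 tested B cell markers had medians of 0.07 and 0.13 with no call. Replicate 3 is also the female library and the second library set. The no dox replicate 3, female and of the same set, was not the highest of its cohort in any of these sums, with antigen presentation at 612, 898 and 726 CPM, interferon at 394, 516 and 444 and T cell markers at 2.79, 3.18 and 2.45. The part of sex or library set in these sums was not tested. Differences ran from -0.02 to 1.22 over the antigen presentation list and from -0.0048 to 2.03 over the interferon list. H2-Ab1 and Irf7 were picked outside the naming rule and were not rerun with single libraries left out. H2-Ab1, a class II chain at the top of its list, differed by 1.22 with a 95% interval of 0.02 to 2.43 (adjusted p = 0.222 by edgeR). Irf7, an interferon regulator, differed by 1.34 (0.44 to 2.23, adjusted p = 0.0685 by edgeR). The red blood cell markers, 6 tested and none called, had a median of -0.88 and summed to 479 to 983 TPM in MBNL1 and 1090 to 1416 in on/off dox.

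**Figure D3:**
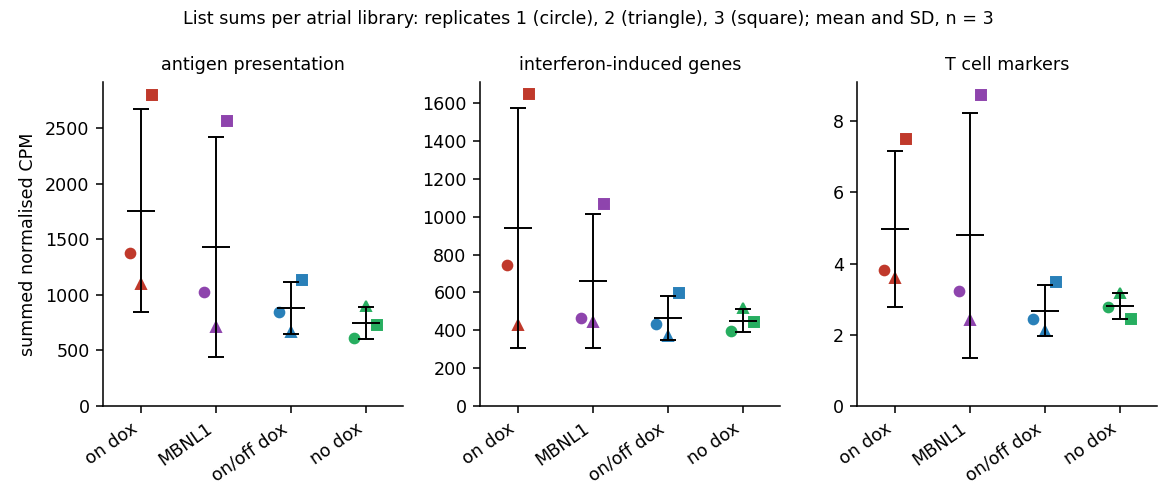
Summed normalised CPM of the antigen presentation, interferon-induced and T cell marker lists in each atrial library, with mean and SD (n = 3). Replicate 3 (square) stands highest in the on dox, MBNL1 and on/off dox cohorts, but not in no dox, and MBNL1 overlaps on/off dox.

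Of 33 ATF4 stress response genes, 3 were higher and 1 lower in MBNL1 (all tested genes, 1% and 0.924%), and the list median was 0.12. Aldh18a1, which starts proline synthesis, read 19.6, 19.3 and 20.2 CPM against 9.3, 10.7 and 10.7, a rise of 0.94 ± 0.09 (adjusted p = 1.22e-05), and Aldh1l2, a mitochondrial folate enzyme, read 114, 119 and 117 against 66.3, 72.3 and 69.5 (0.75 ± 0.14, adjusted p = 0.00344). Of the 4 called genes, 1 was among the repeat-responsive genes, and Aldh18a1 was not (-0.14 in no dox against on dox). Pycr1, the next proline enzyme, rose by 0.68 (adjusted p = 0.0194), and Cth, a cysteine-making enzyme, fell by -0.90 (adjusted p = 0.0174). The Pycr1 call was lost without MBNL1 replicate 2 or 3 or on/off dox replicate 1 or 2 (adjusted p of 0.061 to 0.0987), and the Cth call without any library except on/off dox replicate 3 (0.0505 to 0.0667). Hsph1, a chaperone, read 54.1, 54.1 and 90.0 against 37.7, 36.8 and 42.9 (0.76, adjusted p = 0.011), and without MBNL1 replicate 3 its rise was 0.46, under the fold limit, and without on/off dox replicate 1 its adjusted p was 0.051. Tagln, a smooth muscle actin-binding protein, rose by 1.27 (adjusted p = 0.0179) with 86.8, 60.01 and 41.4 against 21.5, 26.0 and 30.4, and its call was lost without MBNL1 replicate 1 or 2 or on/off dox replicate 1 or 2 (adjusted p of 0.0508 to 0.0842). It was the one call among 10 smooth muscle and pericyte markers, whose list median was -0.19. No member was called among 37 splicing regulators, 51 extracellular matrix genes, 33 costamere and intercalated disc genes, 33 adrenergic and muscarinic genes, 19 clock genes or 23 mitotic genes. The matrix list had 6 genes called higher without repeats (all tested genes, 3.61%). Its median between MBNL1 and on/off dox was -0.11.

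**Figure D4:**
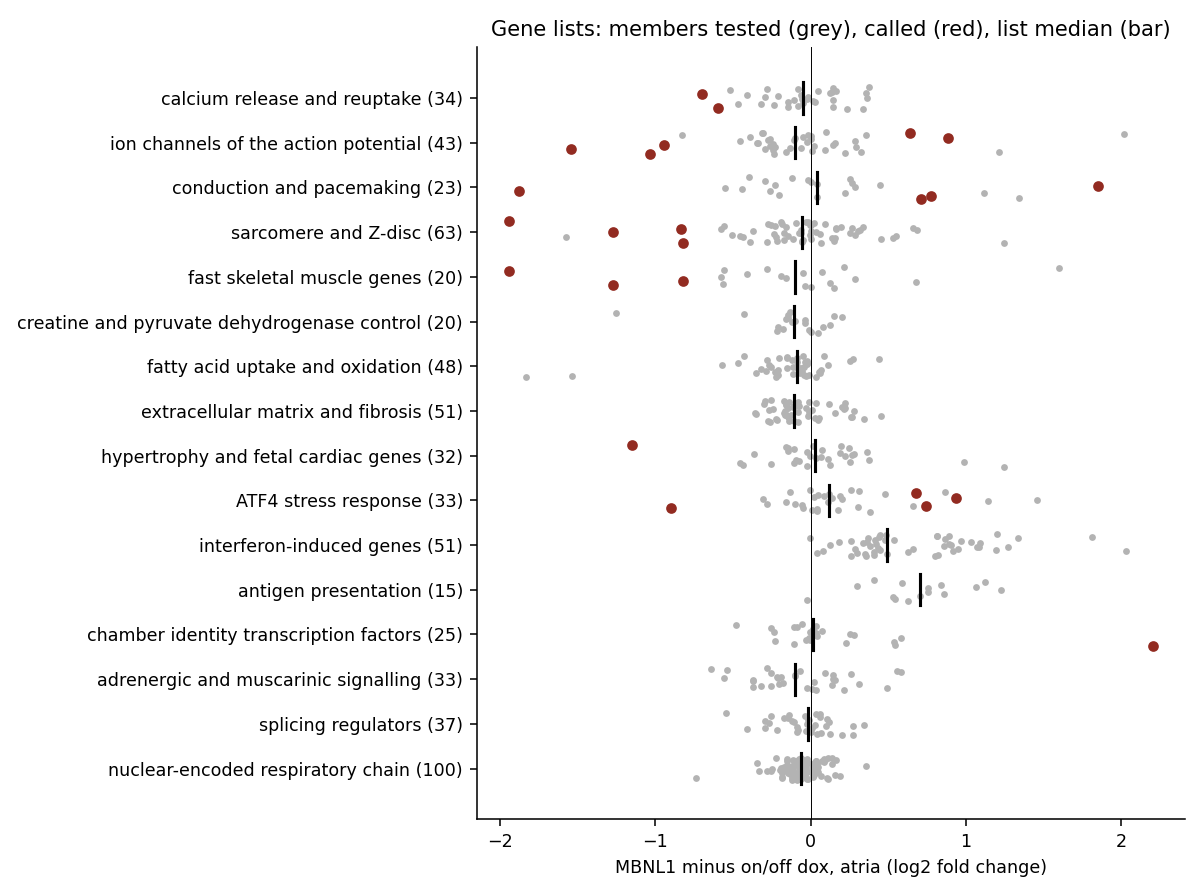
Log2 fold change of MBNL1 minus on/off dox for every tested member of 16 gene lists, with called members in red and the list median as a bar. The interferon-induced and antigen presentation lists sit furthest right by median, 0.49 and 0.70, with no called member.

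Of the 354 genes, 109 were not called between no dox and on dox, and 101 of these still lay on the on dox side by sign. The other 8 lay on the opposite side. Kcna1, a delayed rectifier potassium channel named here after its values were seen, was one of them, with 4.47, 4.61 and 3.27 CPM in MBNL1, 7.04, 8.63 and 6.77 in on/off dox and 7.59, 8.84 and 12.0 in on dox. It fell by -0.86 from on/off dox (adjusted p = 0.0298) and by -1.20 from on dox (adjusted p = 0.0208), and the first call was lost when any one of the 6 libraries was left out (adjusted p of 0.0501 to 0.111). Slc17a9, a vesicular nucleotide transporter also chosen after its values were seen, read 4.25, 4.17 and 4.71 in MBNL1, 1.68, 2.68 and 2.13 in on/off dox and 2.11 to 2.33 in on dox. It was higher than both, by 1.01 ± 0.19 (adjusted p = 0.00244) and 0.99 (adjusted p = 0.0129).

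In ventricle the same cohorts were compared in a fit of all 36 libraries, in which both tissues come from the same mice. Of the 354 atrial genes 306 had the same sign there (86.4%, against 64.4% of 18397 genes tested in both), and 48 had the opposite sign. Ventricle called 167 of 19231 genes (0.868%), and 54 of the 354 were called there in the atrial direction. The difference between the tissues was itself called at 2 of 19231 genes (0.0104%) by edgeR, and 1323 had an unadjusted p below 0.05. With each mouse as a block, a fit chosen after seeing the data, the count was 22. Vxn and Rimkla differed from on/off dox by 2.59 and 3.03 in ventricle, and Lad1, Coq8a and Ryr2 by -1.22, -1.15 and -0.66, all called there. Sbk3 was at -2.19 in ventricle and was not called (adjusted p = 0.0518). Gja5 differed by -0.26 in ventricle, and the difference between tissues was -1.63 (adjusted p = 0.0597). It was called with each mouse as a block (adjusted p = 0.0119) and, over the other alternatives, the adjusted p ran from 8.34e-05 with DESeq2 to 0.212 without atria MBNL1 replicate 2. Shank2 and Rims4 were at -0.11 and 0.16 in ventricle, with tissue differences that were not called without the block (adjusted p of 0.74 and 0.17).

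**Figure D5:**
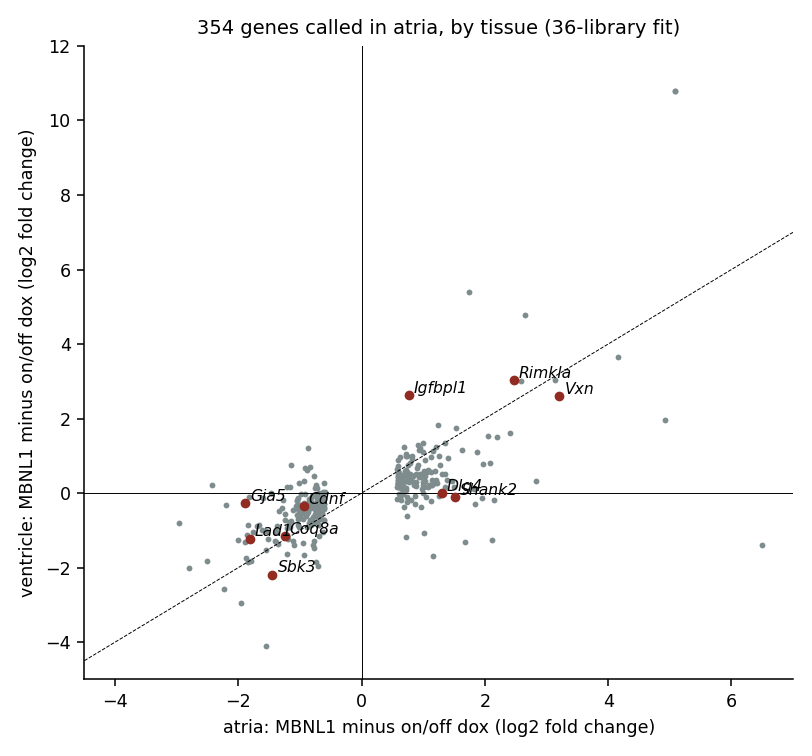
Log2 fold change of MBNL1 minus on/off dox in atria (horizontal) and ventricle (vertical), from the fit of all 36 libraries, for the 354 genes called in atria, with equality as a dashed line. Vxn, Rimkla, Coq8a and Lad1 lie far from 0 on both axes, and Gja5, Dlg4 and Shank2 lie near 0 on the ventricular axis.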

How the data were processed

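Atrial RNA was sequenced as poly(A)-selected stranded libraries. Per the labels and the study's methods, the authors aligned reads with STAR 2.7.10b to mm10 with the GENCODE M25 annotation and ran RSEM 1.3.1, and deposited expected counts and TPM per gene symbol, without pooling replicates. Whether RSEM was given the strand is not given in the sources used here, so overlapping genes on opposite strands remain uncertain. Deposited expected counts were rounded, filtered with filterByExpr, TMM-scaled and fitted with edgeR 4.0.16 (glmQLFit and glmQLFTest, robust) over the 18 atrial libraries, 1 mean per cohort. Intervals are 95% from that fit. The tissue difference used all 36 libraries. The study lists the same 18 mice for both tissues. Deviations from the cohort mean correlated positively between same-numbered atrial and ventricular libraries (r from 0.029 to 0.22), so a block by animal was added. It assumes that the same number marks the same mouse. In MBNL1, atrial replicate 2 correlated better with ventricular replicate 1 (0.095) than with 2 (0.029). In on/off dox it did too (0.060 and 0.050). Alternatives included DESeq2 1.42.0 and limma 3.58.1 on log2(TPM + 1) from the authors' TPM. In simulated counts, 50 genes per fold change, all averaging at least 1 CPM, were changed in MBNL1 alone. The calls recovered 46% of 1.5-fold and 94% of 2-fold changes. A true change of 1.5-fold sits at the fold limit itself. Among the unchanged rest of the 18093 genes run there were 3 false calls. The simulation held no effect of repeats, sex or library set and did not cover recovery under 1 CPM.

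Genes, lists and tests were chosen with earlier results of these data known. Named genes were the 8 measured by RT-qPCR in the study with Mbnl1, Mbnl2, Mbnl3 and Dmpk, the 12 largest rises and 12 largest falls among called genes without overlap at 1 CPM or more, called list members (at most 5 a list) and the 8 largest changes each way between no dox and on dox. Some genes that this rule names are not reported here. Coordinates came from GENCODE M21 (GRCm38). Replicates are separate animals per the labels. Pairs of replicates differed beyond sampling noise, with a mean chi-square per gene of at least 14.4.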

Additional observations from a re-analysis of the deposited data

Results flagged for a closer look

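The effect of MBNL1 against on/off dox differed between atria and ventricle for 2 genes by the interaction term of the 36-library edgeR fit, which does not use that both tissues came from the same mice. Dlg4, the postsynaptic scaffold PSD-95, read 44.3, 47.3 and 40.7 CPM in MBNL1 atria and 17.4, 18.3 and 17.7 in on/off dox atria, a log2 fold change of 1.31, against -0.01 in ventricle. The tissue difference was 1.303 ± 0.17 (adjusted p = 0.00042), and it was called in every alternative run, with adjusted p up to 0.00428. Igfbpl1, an IGF-binding protein relative, read 58.7, 55.2 and 55.9 against 32.4, 36.7 and 29.8 in atria, a change of 0.78, and changed by 2.63 in ventricle. Its tissue difference of -1.86 ± 0.33 (adjusted p = 0.044) was lost with each mouse as a block (adjusted p = 0.0903) and under other alternatives, where the adjusted p reached 0.18.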

How the results depend on the processing

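Counts of calls for MBNL1 against on/off dox stayed within 1.5 times of 354 except with all 36 libraries in the fit (232) and with no fold limit (1441, of which 912 higher and 529 lower), and ranged from 241 to 328 when 1 library was left out. Limma on log2(TPM + 1) gave 247, split into 173 higher and 74 lower, beside 184 and 170. The 245 repeat-responsive genes became 163 with 36 libraries, 1102 with no fold limit (723 higher, 379 lower), 166 with limma (113 and 53, beside 131 and 114) and 172 to 243 with 1 library left out. No dox against on dox (1311) gave 4156 with no fold limit, 682 with limma and 949 to 1385 with 1 library left out, and on/off dox against on dox (986) gave 3297, 557 and 665 to 1077. MBNL1 against on dox (43) gave 106 with DESeq2, 25 with 36 libraries, 73 with library set as a factor, 161 with no fold limit and 21 to 40 with 1 library left out, where leaving out MBNL1 replicate 3 (21) or on dox replicate 1 (27) or 2 (25) took it down by more than 1.5 times. The tissue difference (2) gave 29 with DESeq2 and 1 to 7 with 1 library left out, the 7 without ventricle on/off dox replicate 3. Where these counts moved the cause was not tested. The replicate block gave 404 calls for MBNL1 against on/off dox and 6 for the tissue difference, and the block by animal, added after seeing the data, gave 22 for the tissue difference, 1 of them shared with the 2. Between MBNL1 and on/off dox atria, same-numbered replicates correlated at 0.02, 0.20 and 0.27, so the numbers did not pair these cohorts, and MBNL1 replicate 1 correlated better with on/off dox replicate 2 (0.089). Library set A alone, chosen after seeing the data, gave 432 and 283. Of 58 called genes that are named, 31 kept their call in all 16 alternatives, none reversed, and 27 lost it in at least 1. Another 4 named genes without a call gained one in some alternative, Asph and Mbnl1 with no fold limit, Hcn4 with limma and Mfsd4b1 in 6.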

Other observations

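Enzymes of sterol synthesis were listed after their values were seen, so this list carries no test. Of 24 tested genes of sterol synthesis and uptake, 4 were higher in MBNL1 than in on/off dox and none was lower, with a median of 0.12 beside -0.01 over all tested genes. Lss, lanosterol synthase, read 13.7, 13.03 and 8.05 CPM in MBNL1 and 4.78, 4.63 and 4.92 in on/off dox, with 14.4 to 15.5 in on dox. It rose by 1.28 ± 0.16 (adjusted p = 9.46e-05 by edgeR). Mvd, mevalonate diphosphate decarboxylase, read 5.68, 5.15 and 5.34 against 3.53, 3.33 and 3.25 (0.68, adjusted p = 0.0102). Tmem97, a sterol-regulated membrane protein, rose by 0.68 (adjusted p = 0.00522), or by 0.55 and under the fold limit without MBNL1 replicate 2. Sqle, squalene epoxidase, rose by 0.68 (adjusted p = 0.04), and its call was lost when any library other than MBNL1 replicate 3 was left out (adjusted p of 0.062 to 0.157). All 4 were among the 9 listed genes called lower in no dox than in on dox (all tested genes, 3.51%).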
